A study of Mus musculus with 8 samples.

Results

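Cytosolic ribosomal protein genes encode the proteins of the ribosomes that work outside mitochondria, and they were examined here in bone marrow-derived macrophages (BMDMs) from wild-type (WT) and Gsdmd-/- mice. Members were chosen by gene symbol: Rpl and Rps genes with a number and at most the letter a, x or l behind it, the stalk genes Rplp0, Rplp1 and Rplp2, and Rpsa, with rows named as pseudogenes (-ps) dropped. The rule found 83 of the 54532 genes in the count table, of which 76 have names that do not end in l and form the core set, and 7 (Rpl3l, Rpl6l, Rpl10l, Rpl32l, Rpl39l, Rps4l and Rps27l) carry the l of "like". The symbols Rps3a1, Fau and Rack1, whose products also sit on the ribosome, fall outside that rule and are given separately.

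BMDMs are macrophages grown from bone marrow cells with M-CSF, the growth factor of the macrophage lineage, here for 6 days. The study took marrow from female C57BL/6J mice aged 6 to 8 weeks and used Gsdmd-/- cells to ask what gasdermin D, the pore-forming protein of pyroptosis, contributes to macrophage state. Its WT mice were bought from a supplier, whereas its Gsdmd-/- mice were a gift kept at Shandong University. Genotype and colony of origin therefore cannot be told apart here. The paper does not give strain, sex and age separately for the Gsdmd-/- mice. Libraries were made with a TruSeq RNA kit from total RNA of 4 WT and 4 Gsdmd-/- samples, all untreated. No source says whether the 4 libraries of a genotype came from separate mice, so p-values measure the spread between these samples, which may be technical.

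A ribosome is built from a large and a small subunit, each of ribosomal RNA and many proteins, most of them small, basic and needed in equal numbers. Nearly every such protein is encoded by a single active gene, accompanied by many processed pseudogenes that carry close copies of its mRNA. The mRNAs typically start with a run of pyrimidines, the terminal oligopyrimidine tract, through which mTORC1 adjusts their translation when a cell grows or is activated, and macrophages are known to use single ribosomal proteins outside the ribosome as well.

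The annotated starts were searched for such a run. RefSeq promoter windows on GRCm38.p6, 250 bases before to 50 after the annotated start, were matched for 61 of the 83 members, giving 73 promoters because some genes have more than 1 start. A run of at least 7 C or T bases inside the 20 bases on either side of the start was found in 40 of the 73 (54.8%), against 24.3% of the 32851 promoters of all genes and 22.7% of 75 promoters of mitochondrial ribosomal protein genes. Windows of 6 genes with long runs are shown, with the run in capitals inside 30 bases around the start, to let the shared letters be seen.
Rpl7a (chr2:26910792-26910821, plus strand): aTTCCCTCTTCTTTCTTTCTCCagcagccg
Rpl27a (chr7:109519181-109519210, plus strand): acttcgtgagCTCCTCCCTTTTCCCTTTCT
Rpl34 (chr3:130730325-130730354, minus strand): CCCCTTCCTTTTCCTCTTCCggggacggtg
Rpl35 (chr2:39005117-39005146, minus strand): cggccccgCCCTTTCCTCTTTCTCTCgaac
Rpl15 (chr14:18270972-18271001, minus strand): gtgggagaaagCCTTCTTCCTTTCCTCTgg
Rpl13a (chr7:45128730-45128759, minus strand): aaaccctgcgacaagaCCTCCTCCTTTCCC
Runs in these windows ranged from 14 bases in Rpl13a to 21 in Rpl7a. Another motif, CCGGAAG on either strand, the core that factors of the ETS family read, stood in 35.6% of the members' promoters, in 34.7% of those of mitochondrial ribosomal protein genes and in 8.86% of all promoters. GGGCGG, a letter string of GC boxes, was found in 57.5% of the members' promoters and 35.7% of all, AAGATGG in 15.1% and 6.34%, and TATAAA in 9.59% and 13.6%. A match only says that the letters are there.

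The targeted gene followed the labels. Gsdmd stood at 73.8, 63.5, 68.5 and 95.6 CPM (counts scaled to library size with TMM factors) in WT 1 to 4, and at 18.2, 14.4, 16.3 and 16.0 CPM in Gsdmd-/- 1 to 4. Its log2 fold change, always Gsdmd-/- against WT, was -2.22 (SE 0.14, edgeR quasi-likelihood test, adjusted p = 4.665e-05), and the groups did not overlap. Which part of the gene the knockout removed is not given in the sources used here. Library totals lay between 14935114 and 16794810 counts. Macrophage markers were high in all libraries (10 of 10 passed the filter on low counts, summed level 15900 to 24200 CPM in WT and 20000 to 24100 in Gsdmd-/-), whereas the sums were 4.69 to 7.29 CPM for 10 neutrophil markers with 2 at 0 throughout, 0.243 to 2.56 for 7 stromal markers with 1 at 0, at most 0.669 for 8 lymphoid markers with 1 at 0, and at most 0.672 for 7 erythroid markers with 3 at 0. Libraries of WT did not resemble each other equally. WT 2 and WT 3 were close together (chi-square of their counts over genes, 7.52 per degree of freedom) and far from WT 1 and WT 4 (49.4 to 80.7) and from the Gsdmd-/- libraries (31.5 to 60.5), where the Gsdmd-/- libraries were 5.84 to 24.8 from each other. Fcgr1, a receptor for IgG, was at 36.2, 7.09, 6.66 and 40.7 CPM in WT 1 to 4 and 17.8 to 26.9 CPM in Gsdmd-/-. Cd68, a lysosomal glycoprotein, was at 820, 414, 424 and 849 CPM in WT and 621 to 778 CPM in Gsdmd-/- (both are named after their values were seen). Adgre1, another macrophage marker, went the other way, at 291, 319, 326 and 277 CPM in WT 1 to 4. Over the 10 macrophage markers, the median deviation of log2 CPM from the mean of the 8 libraries was 0.084, -0.29, -0.13 and 0.26 in WT 1 to 4. Where leaving out WT 2 and WT 3 turned the direction of a named value, the value without them is given as well. In bulk samples fewer cells of a type and less RNA per cell cannot be told apart.

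Ribosomal protein genes took 2.36%, 2.06%, 2.40% and 3.08% of all counts in WT 1 to 4 and 2.63%, 2.22%, 2.86% and 2.28% in Gsdmd-/- 1 to 4. These shares overlapped, with a mean of 2.48% ± 0.432 (SD, n = 4) in WT and 2.50% ± 0.303 (SD, n = 4) in Gsdmd-/-. The difference of 0.0223 percentage points was smaller than either SD. Without the 10 genes with the most counts the means were 2.90% and 2.93%.

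By gene, no member passed the adjusted p of 0.05. Of the 83, 80 passed the filter on low counts and were tested, and 0 of 80 were called, where 0.349% of the 12911 genes tested (45 genes, 18 higher and 27 lower in Gsdmd-/-) were. At an unadjusted p under 0.05, 1 member was reached against 12% of all genes, and DESeq2 and edgeR's exact test each called 1 member, Rpl39l, where they called 2.26% and 1.91% of all genes. When a log2 fold change of 0.5 or more in either direction was asked for as well, the looser call, Rpl39l was again the single member, where 4.83% of all genes passed. It was also the single member whose groups did not overlap, which 7.6% of all genes did not. Of the 80, 37 were above 0 and 43 below, and their median log2 fold change was -0.0087, beside -0.0068 over all genes tested.

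**Figure D1:**
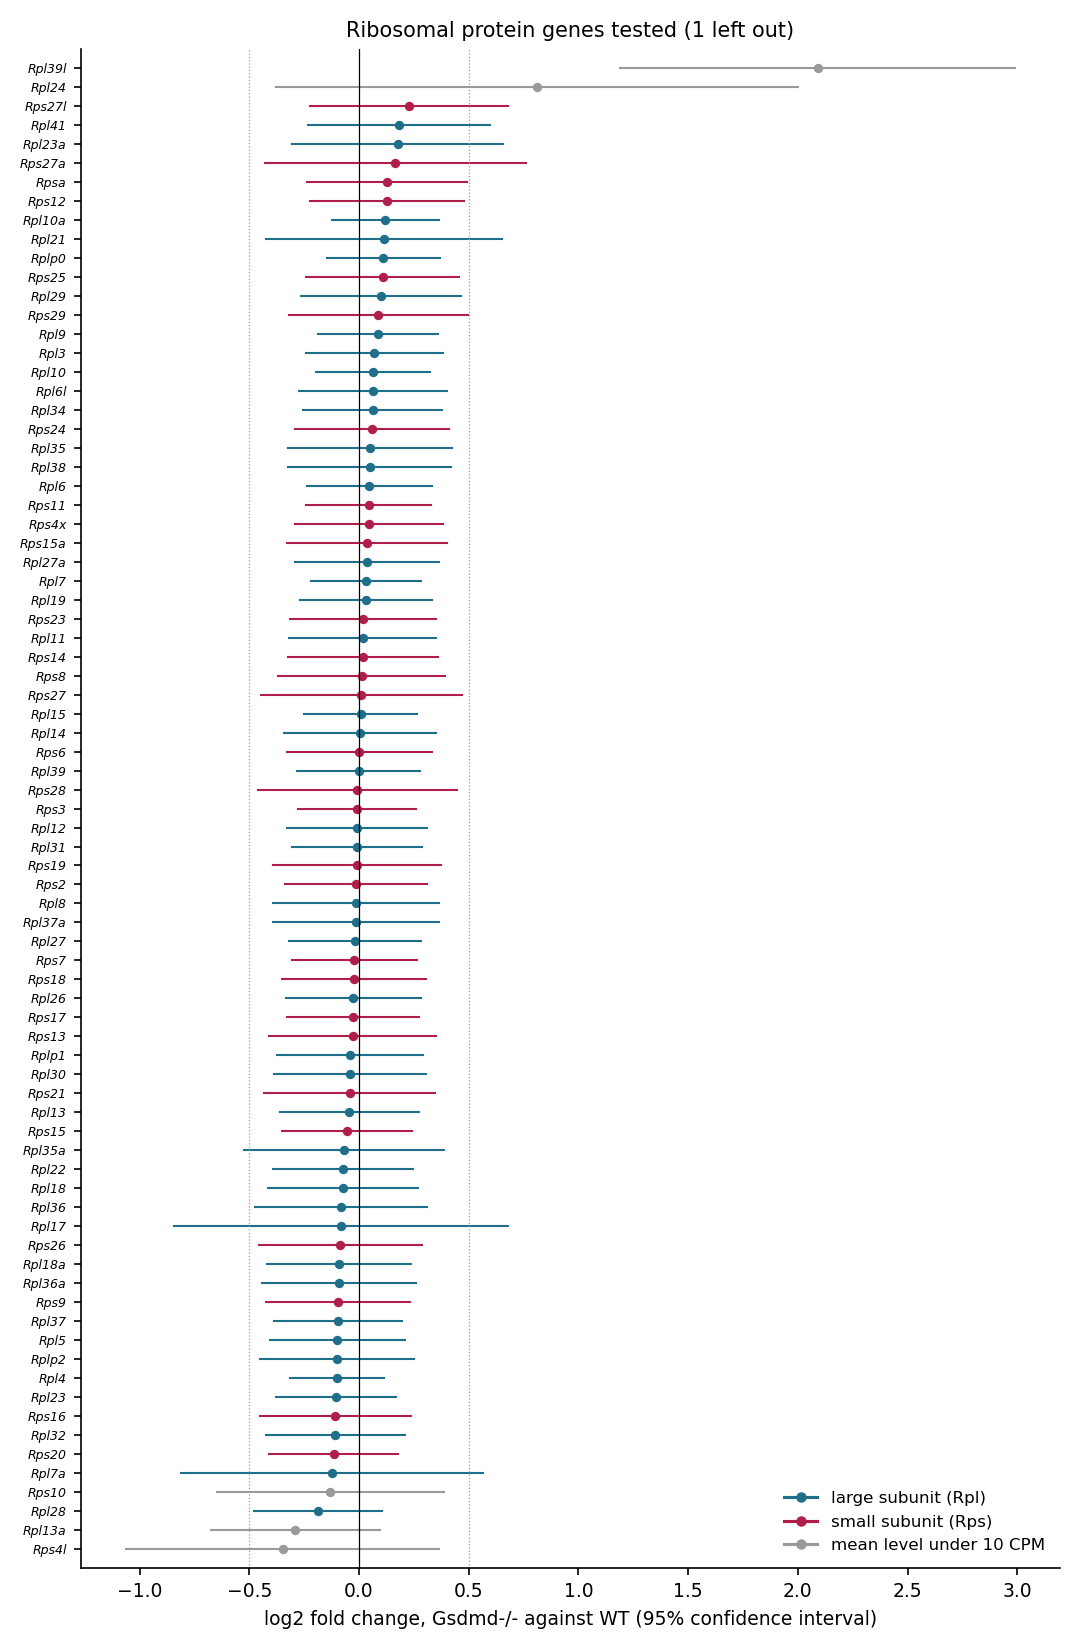
Log2 fold change of the members tested, with 1 left out, Gsdmd-/- against WT, with its 95% confidence interval (edgeR quasi-likelihood fit over 8 libraries), sorted by size on the y axis. Dotted lines mark 0.5 and -0.5. Rpl39l at 2.09 stands alone to the right, and every other interval shown includes 0.

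Intervals of most members were about as wide as those of all genes tested. For the 73 core members with a mean of at least 10 CPM, log2 fold changes ran from -0.19 (Rpl28) to 0.18 (Rpl41). The 95% confidence interval lay wholly within 0.5 of 0 for 66 of these 73, and within 1 of 0 for all 73. Of all genes tested, which include genes under 10 CPM, 52.1% had an interval within 0.5 of 0. The median half-width was 0.332 for the 73 and 0.327 for all genes tested. Large subunit genes (46 tested, 20 above and 26 below 0, median -0.012) and small subunit genes (30 tested, 14 above and 16 below 0, median -0.0083) had medians near 0.

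The stalk is where elongation factors dock on the large subunit, and its 3 proteins come from Rplp0, Rplp1 and Rplp2. Rplp0 was at 1352, 1144, 1258 and 1600 CPM in WT and 1446, 1354, 1619 and 1365 CPM in Gsdmd-/-. Its groups overlapped, with a log2 fold change of 0.11 (95% interval -0.15 to 0.37). Rplp1 and Rplp2 had log2 fold changes of -0.040 and -0.10, so that 0 of 3 stalk genes passed the test.

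Rpl5 and Rpl11 join the large subunit together and, when ribosome assembly is disturbed, bind Mdm2 and so release p53. Rpl5 read 345, 336, 395 and 506 CPM in WT against 380, 331, 421 and 346 CPM in Gsdmd-/-. Rpl11 read 281, 241, 313 and 385 CPM in WT against 331, 262, 360 and 282 CPM in Gsdmd-/-. In both genes WT 4 was the highest library of all 8, and the log2 fold changes were -0.099 (95% interval -0.40 to 0.21) and 0.018 (-0.32 to 0.35). Rpl23, another protein that binds Mdm2, had -0.11 (SE 0.12).

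On the small subunit, Rps6 is the substrate of the S6 kinases below mTORC1. It was at 383, 312, 358 and 500 CPM in WT and 383, 339, 462 and 371 CPM in Gsdmd-/-, with a log2 fold change of 0.0014 (95% interval -0.33 to 0.33). Rpsa, which doubles as a laminin receptor at the cell surface, averaged 818 ± 205 CPM in WT and 894 ± 103 CPM in Gsdmd-/- (SD, n = 4 each). Its log2 fold change was 0.13 (SE 0.16). Rps27a, made as a fusion with ubiquitin, ran from 140 to 275 CPM in WT and from 163 to 354 CPM in Gsdmd-/-, its highest value being that of Gsdmd-/- 3. All of these overlapped between the genotypes.

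The members with the smallest unadjusted p in each direction were modest too, Rpl39l apart. Below 0 they were Rpl13a (-0.29), Rpl28 (-0.19), Rps4l (-0.35), Rpl4 (-0.10), which lines the exit tunnel of the nascent chain, Rps20 (-0.12) and Rpl23 (-0.11). Above 0 came Rpl24 (0.81), Rps27l (0.23), Rpl10a (0.12), Rpl41 (0.18), the shortest of the ribosomal proteins, and Rplp0. The adjusted p of all of these members (edgeR quasi-likelihood test) was 0.5559 or higher. Rpl28 gives an idea of the spread: 257, 268, 331 and 346 CPM in WT lay across 277, 227, 311 and 242 CPM in Gsdmd-/-.

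Rpl39l stood apart. It encodes a near copy of Rpl39, a tiny protein in the wall of the exit tunnel, and is known mainly from male germ cells. It lies at chr16:10170226-10174911 on the plus strand (GENCODE M21, GRCm38), and Rpl39 at chrX:37082520-37085402 on the minus strand. The row held 4, 3, 8 and 11 counts in WT 1 to 4 and 24, 21, 37 and 28 counts in Gsdmd-/- 1 to 4, so the lowest Gsdmd-/- library had more than the highest WT library. With 4, 3 and 8 counts in WT 1 to 3, the row passed the filter on low counts through the Gsdmd-/- libraries. In CPM the means were 0.396 ± 0.225 and 1.72 ± 0.493 (SD, n = 4 each). The log2 fold change was 2.09 (SE 0.41, 95% interval 1.19 to 2.99), and its adjusted p of 0.0766 (edgeR quasi-likelihood test) missed the threshold. Under DESeq2 and edgeR's exact test the adjusted p was 0.00155 and 0.000197, without a filter on low counts it was 0.0232, and across all settings in which the gene was tested it ran up to 0.2332. With WT 2 and WT 3 left out the log2 fold change was 1.89 (adjusted p = 0.1141).

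None of the 50-nt windows of the Rpl39l transcript occurs in a transcript of another annotated gene. Rpl39 itself was at 191, 172, 197 and 235 CPM in WT and 202, 185, 237 and 170 CPM in Gsdmd-/-, overlapping throughout, with a log2 fold change of -0.0016. Rpl39l therefore made up 0.127%, 0.107%, 0.247% and 0.284% of the pair's counts in WT and 0.700%, 0.666%, 0.980% and 1.08% in Gsdmd-/-. That difference of 0.665 percentage points had p = 0.0286 in an exact two-sided permutation test, the smallest value 4 against 4 can give, and an adjusted p of 0.1143 over the 4 pairs tested. Since Rpl39 hardly differed, the share repeats the separation of the Rpl39l counts, so this p adds no support of its own. Per kb of exon, Rpl39l had mean levels of 0.477 CPM (WT) and 2.07 CPM (Gsdmd-/-), and Rpl39 had 139 and 138 CPM.

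**Figure D2:**
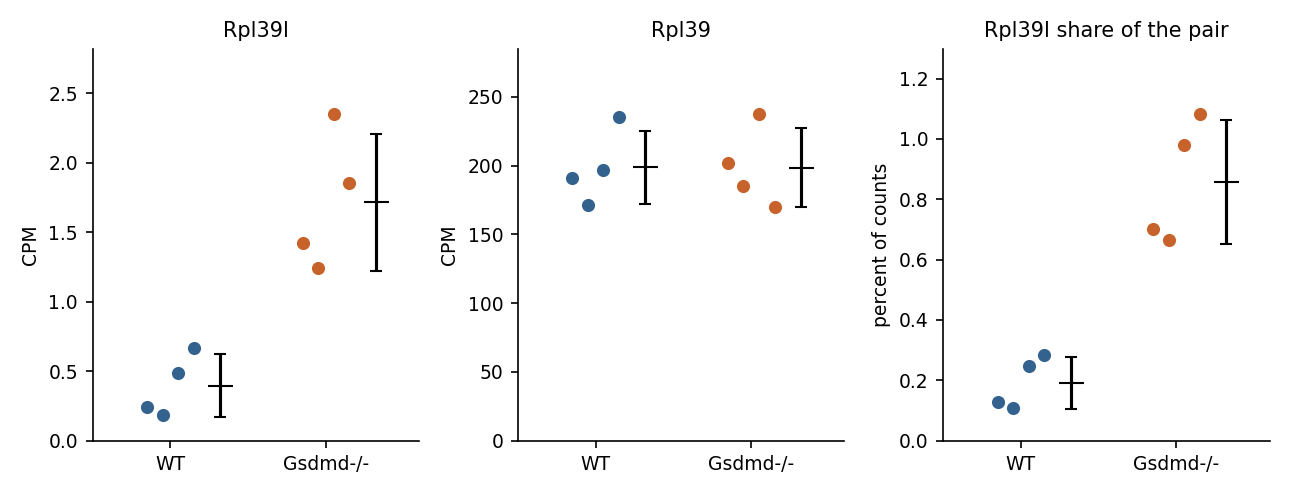
CPM of Rpl39l (left) and Rpl39 (middle) and the percent of the pair's counts on Rpl39l (right) in 4 WT and 4 Gsdmd-/- libraries. Points are libraries, and the black bar is the mean with its SD. Rpl39l separates the genotypes at 0.183 to 0.669 against 1.24 to 2.35 CPM, whereas Rpl39 overlaps.

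The upstream sequences of this pair differ in the motif named above. The 150 bases before each RefSeq start on GRCm38.p6 are shown because Rpl39l was the one member that met the looser call, and capitals mark CCGGAAG.
Rpl39l (chr16:10170078-10170227, plus strand): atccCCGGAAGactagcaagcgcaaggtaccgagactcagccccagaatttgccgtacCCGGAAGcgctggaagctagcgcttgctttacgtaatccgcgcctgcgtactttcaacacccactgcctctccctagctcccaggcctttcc
Rpl39 (chrX:37085223-37085372, minus strand): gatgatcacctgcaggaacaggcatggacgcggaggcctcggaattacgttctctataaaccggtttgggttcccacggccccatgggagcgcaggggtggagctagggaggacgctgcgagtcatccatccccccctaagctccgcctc
Rpl39l has 2 matches in this stretch and Rpl39 has 0.

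In the other paralog pairs the shares overlapped between the genotypes. Rps27l, a p53 target that can replace Rps27, was at 81.2, 51.6, 61.9 and 109 CPM in WT and 95.2, 83.9, 99.2 and 77.3 CPM in Gsdmd-/-. Its share of the pair with Rps27 was 48.7% ± 7.82 in WT and 52.4% ± 1.69 in Gsdmd-/- (SD, n = 4 each, exact permutation test, p = 0.4000). By library the share was 59.3%, 45.8%, 40.8% and 48.9% in WT 1 to 4 and 49.8% to 53.3% in Gsdmd-/-, so the overlap rested on WT 1. The difference was 3.69 points with all libraries, 7.22 without WT 1 (exact permutation test, adjusted p = 0.1143) and 1.05 without WT 3. Without WT 2 and WT 3 it was -1.73 points. For Rpl22l1 with Rpl22 the shares were 6.02% ± 1.34 and 5.796% ± 0.804 (exact permutation p = 0.7714), and for Rpl36al with Rpl36a 0.695% ± 0.152 and 0.756% ± 0.109 (exact permutation p = 0.4857). Rpl7l1, which acts in large subunit maturation, had a log2 fold change of -0.036.

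The remaining like-named genes had few counts, Rpl6l apart. Rps4l, annotated as a transcribed processed pseudogene, had CPM of 7.24, 5.56, 9.10 and 2.68 in WT, against 5.87, 5.38, 4.44 and 3.58 CPM in Gsdmd-/-. Rpl6l, also annotated as a pseudogene, averaged 40.2 ± 8.76 CPM in WT and 42.0 ± 5.83 CPM in Gsdmd-/- (SD, n = 4 each). Its log2 fold change was 0.063. Rpl3l, the striated muscle form of Rpl3, held 1 to 10 counts per library and Rpl32l, an annotated processed pseudogene, 5 to 14. Rpl10l, the germ cell form of Rpl10, had 0 counts in all 8 libraries, which allows up to 0.177 to 0.199 CPM per library. These last 3 were the members not tested.

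Across libraries of the same genotype the members moved together. WT 4 was the highest WT library for 77 of 80 members (96.2%, against 33.5% of all genes tested), and WT 2 the lowest for 65 (81.2%, against 26.4%). Among Gsdmd-/- libraries, Gsdmd-/- 3 was the highest for 68 of 80 (85%, against 33.7%) and Gsdmd-/- 2 the lowest for 63 (78.8%, against 26.7%). As deviations of log2 CPM from each gene's mean over the 8 libraries, the members had medians of -0.086, -0.26, -0.0021 and 0.36 in WT 1 to 4 and 0.051, -0.19, 0.26 and -0.13 in Gsdmd-/- 1 to 4. The libraries thus spread by more within a genotype than the genotypes differed.

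Much of the spread of a single gene was this common movement. For the 75 members with at least 10 CPM, the median SD of log2 CPM over the 8 libraries was 0.229, and it was 0.0882 once the pattern common to the members was subtracted. Over all genes of at least 10 CPM the median SD was 0.177. Of the 75, 72 stayed within 0.5 of the common pattern in every library, and Rpl17, Rps27a and Rpl7a did not (Rpl17 and Rpl7a are named after their values were seen).

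Other genes with short mRNAs moved the same way. Coding genes outside the set whose longest transcript is under 1000 nt (404 tested) had medians of -0.12, -0.25, -0.027 and 0.26 in WT and 0.14, -0.092, 0.25 and -0.093 in Gsdmd-/-, while the 10874 longer coding genes stayed between -0.0052 and 0.022. Mitochondrial ribosomal protein genes (77 tested) had -0.058, -0.30, -0.10 and 0.25 in WT and 0.094, -0.056, 0.23 and -0.038 in Gsdmd-/-. Long nuclear RNAs (3 tested of 4) went the other way at the extremes, with 0.80 in WT 2, -0.40 in WT 4 and -0.55 in Gsdmd-/- 3. The part of nuclear RNA content or transcript length in this movement was not tested.

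**Figure D3:**
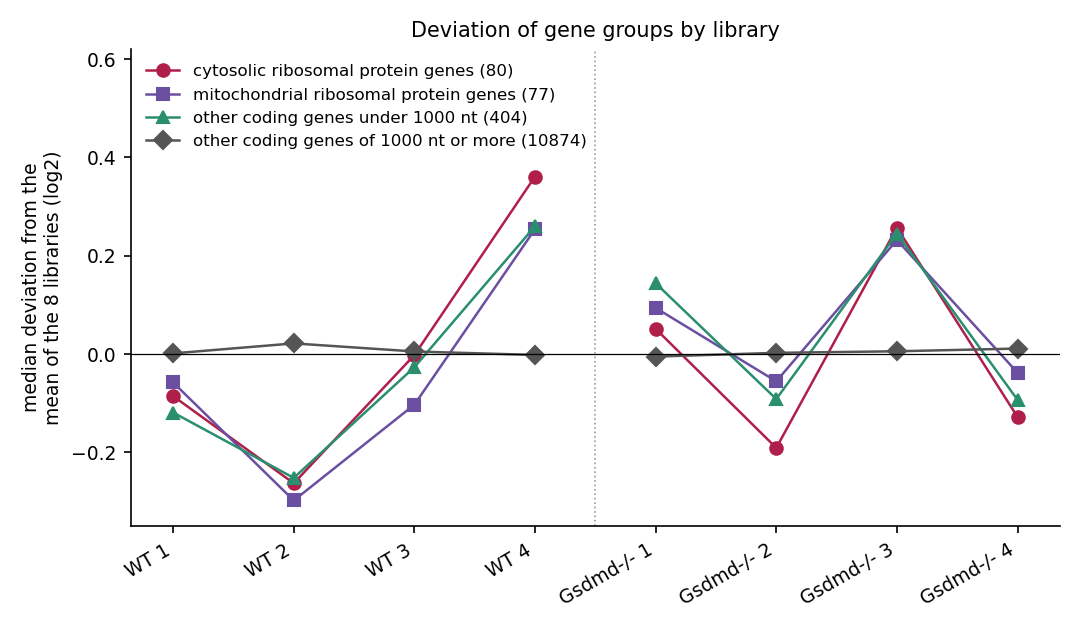
Median deviation of log2 CPM from the mean over the 8 libraries, in each library, for 4 groups of genes, with the number tested in brackets. Cytosolic ribosomal protein genes, mitochondrial ribosomal protein genes and other short coding genes peak in WT 4 and Gsdmd-/- 3, whereas long coding genes stay near 0.

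The sign of the members' median depended on which libraries entered. Without WT 4 it was 0.13, with 72 members above and 8 below 0, and without WT 2 and WT 3 it was -0.13, with 3 above and 77 below. Without WT 4, 9 members (Rpl21, Rpl24, Rpl39l, Rpl41, Rps4l, Rps12, Rps25, Rps27l and Rpsa, named after their values were seen) had an unadjusted p under 0.05, which is 11.2% of the 80, while 20.5% of all genes tested had one in the same fit. Rpl39l alone of the members then had an adjusted p under 0.05, of 0.0412 (edgeR quasi-likelihood test). With WT 4 and Gsdmd-/- 3 both left out the median was 0.041.

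Levels between genes were compared per kb of annotated exon. Rplp1 led at 2110 CPM per kb, followed by Rplp0 at 839, Rpl41 at 821 and Rps29, a small zinc-binding protein of the small subunit head, at 519. Rplp0 and Rpl41 differed by less than the spread between libraries. At the other end of the core set stood Rpl24 at 0.758, Rps10 at 0.789 and Rpl13a at 4.69 CPM per kb, far below the 73 other core members, which ran from 19.8 (Rpl21) to 2110 with a median of 156. Rpl39l (1.27) lay between Rps10 and Rpl13a. Per kb of the longest annotated transcript the order of Rplp0 and Rpl41 turned, at 1025 for Rplp0 and 1380 for Rpl41, and Rplp1 still led at 2110. At the low end Rpl24 was then at 1.15, Rpl39l at 1.31, Rps10 at 2.06 and Rpl13a at 9.46 CPM per kb.

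Those 3 core genes share an annotation feature. Exons of another gene on the same strand cover 47% of Rpl24's exon bases (Gm28037), 20.6% of those of Rps10 (RPS10-NUDT3) and 35.4% of those of Rpl13a (mostly Gm45713), whereas for the 73 others the overlap was 0 to 14.5%. Gm28037, RPS10-NUDT3 and Gm45713 also overlap a neighbouring gene (Zbtb11, Nudt3 and Flt3l), and each had 0 counts in every library. The paralog Rpl36al, outside the rule, had 24.5% overlapped (Gm49383) and stood at 0.561 CPM per kb. How reads in overlapping exons were counted is not given in the sources used here, and its part in these low values was not tested.

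**Figure D4:**
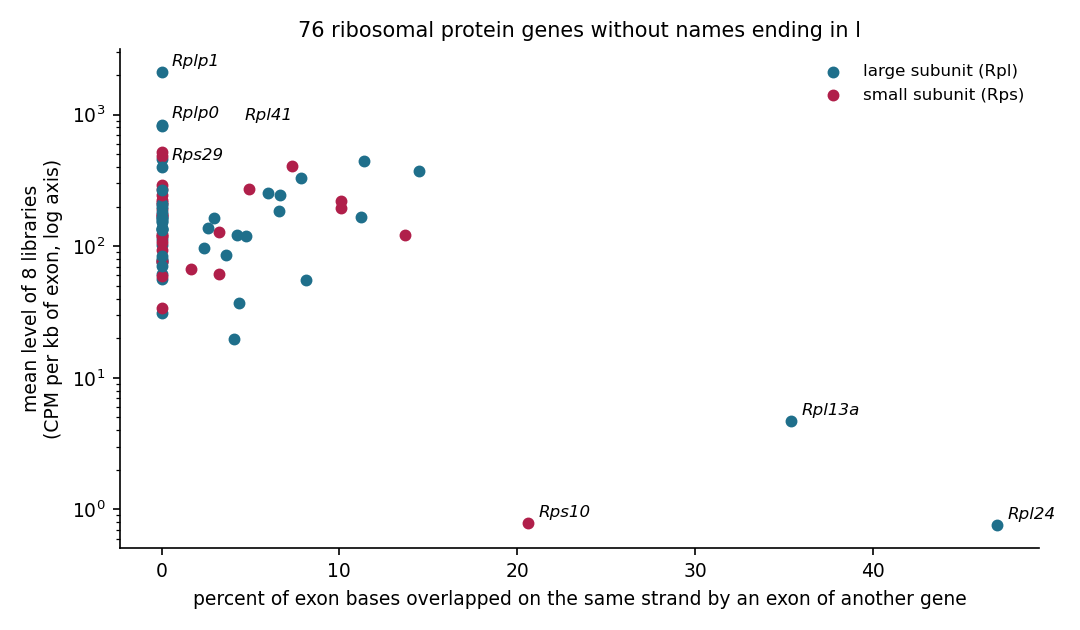
Mean level over 8 libraries (CPM per kb of exon, log axis) of the 76 core members against the percent of their exon bases that an exon of another gene overlaps on the same strand. The 3 genes above 20% (Rps10, Rpl13a and Rpl24) are also the 3 lowest, at 0.758 to 4.69 CPM per kb.

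Rpl13a, the large subunit protein that myeloid cells release from the ribosome to silence inflammatory mRNAs after interferon-gamma, had 9.01, 10.4, 13.6 and 10.6 CPM in WT and 10.01, 6.80, 10.47 and 8.36 CPM in Gsdmd-/-, which overlapped. Rpl24, a bridge between the subunits, rested on 7, 11, 1 and 18 counts in WT and 14, 13, 20 and 17 in Gsdmd-/-, so that its log2 fold change of 0.81 (SE 0.54) carried the widest interval of the core set. Rps10, a small subunit gene mutated in Diamond-Blackfan anaemia, held 24, 28, 34 and 39 counts in WT and 28, 25, 30 and 29 in Gsdmd-/-. Its processed copy Rps10-ps2 held 1486 to 2123 counts in WT and 1477 to 1919 in Gsdmd-/-.

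Rps10 and Rps10-ps2 are almost the same sequence. Over 495 aligned bases of the coding sequence they differ at 5, an identity of 99%, and all 5 fall in the stretch printed here, bases 384 to 473 of the coding sequence, with the differing bases in capitals (GENCODE M21 transcripts, GRCm38).
Rps10 (chr17:27630490-27632295, minus strand, introns removed): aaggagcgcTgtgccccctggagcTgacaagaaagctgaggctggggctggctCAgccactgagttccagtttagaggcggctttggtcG
Rps10-ps2 (chr16:20822168-20822257, minus strand): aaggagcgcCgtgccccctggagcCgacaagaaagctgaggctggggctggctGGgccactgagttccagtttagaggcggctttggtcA
Of the counts of Rps10 and the genes that share at least 20% of its 50-nt windows, 1.5% were on Rps10.

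Sharing of sequence was the rule in the set. Of 80 members with a coding transcript, 46 shared at least 50% of their 50-nt windows with transcripts of other genes, and the median was 53.5%. Rpl32l, Rpl6l and Rps4l, annotated as pseudogenes without a coding transcript, were not searched in this way. Of 79 members with a coding transcript and counts, 55 held at least 90% of the counts summed over themselves and the genes sharing at least 20% of their windows. For 15 of the 79 no other gene entered the sum, so they hold all of it by construction. A gene sharing that much was left out where it was not in the count table, was itself a member or was already summed with another member. The lowest shares after that of Rps10 were those of Rpl24 (13.2%), Rpl21 (34.9%) and Rpl17 (39%), of which Rpl21 is also named after its values were seen. With counts summed in that way, no member had an adjusted p under 0.05, and the median log2 fold change was -0.0021.

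Rpl17, a protein at the rim of the exit tunnel, shares sequence with its copy Rpl17-ps10, which contains 52.9% of its windows. Rpl17 held 2870, 1222, 1226 and 1699 counts in WT and 2623, 1045, 1897 and 1001 in Gsdmd-/-, and Rpl17-ps10 held 564, 1652, 2172 and 2287 in WT and 807, 2238, 2878 and 2213 in Gsdmd-/-. Rpl17 thus had 83.6% and 76.5% of the pair's counts in WT 1 and Gsdmd-/- 1, but 31.1% to 42.6% in the 6 other libraries. The high share was found once in each genotype. The log2 fold change of Rpl17 was -0.082 (SE 0.34). Rpl17 was picked after its values were seen.

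**Figure D5:**
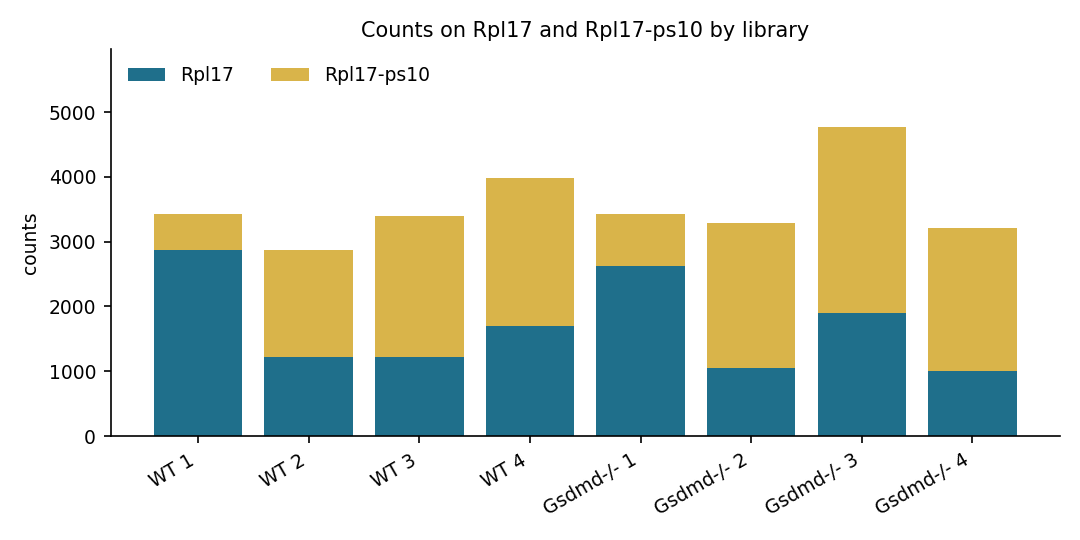
Counts on Rpl17 and on Rpl17-ps10 in each of the 8 libraries, stacked from 0. WT 1 and Gsdmd-/- 1 hold mostly Rpl17 counts (83.6% and 76.5%), and the other libraries mostly Rpl17-ps10 counts.

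Rows named as ribosomal protein pseudogenes numbered 298, of which 87 passed the filter. They took 0.0780% to 0.114% of all counts in WT and 0.0892% to 0.115% in Gsdmd-/-. Of the 87, 54 were above 0 and 33 below, with a median log2 fold change of 0.085. By either edgeR test, DESeq2 or voom, 0 had an adjusted p under 0.05. None reached an unadjusted p under 0.05 either, where 12% of all genes tested did in the edgeR quasi-likelihood test. The smallest unadjusted p was that of Rps13-ps2 above 0 (0.46, adjusted p = 0.4453) and of Rpl31-ps11 below (-0.49, adjusted p = 0.5928), by the edgeR quasi-likelihood test.

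Ribosomal genes outside the symbol rule were tested as well. Rps3a1 (0.084), Rack1 (0.0098), a scaffold on the small subunit, and Fau (-0.17), a small subunit protein made fused to a ubiquitin-like one, had log2 fold changes within 0.2 of 0.

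Genes that build ribosomes or steer their mRNAs were listed beside the members. Of all genes tested, 0.349% were called by the edgeR quasi-likelihood test and 12% had an unadjusted p under 0.05. In the mitochondrial ribosome, 59 of 77 genes tested were above 0 and 18 below (median 0.090), and 0 were called by any of edgeR's tests, DESeq2 and voom (0 at an unadjusted p under 0.05 in the edgeR quasi-likelihood test), with Mrps5 (0.20, adjusted p = 0.513) and Mrps6 (-0.42, adjusted p = 0.4274) nearest in each direction. Of 53 ribosome biogenesis factors, 30 were above 0 and 23 below, and 0 were called by the same tools (2 at an unadjusted p under 0.05). Tsr1, which acts late in small subunit maturation, came closest below 0 (-0.34, adjusted p = 0.2949), and Riok2, a kinase of the same step, above 0 (0.31, adjusted p = 0.454). For 14 genes of RNA polymerase I, which transcribes ribosomal RNA, the count was 6 above and 8 below with 0 called by these tools (1 at an unadjusted p under 0.05), and the nearest were Taf1b (0.47, adjusted p = 0.2952) and Polr1a (-0.22, adjusted p = 0.5806).

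Among 19 regulators of mTORC1 signalling and of ribosomal mRNA tested, 1 was called by the edgeR quasi-likelihood test. At an unadjusted p under 0.05 there were 4, 2 above and 2 below 0 (12% of all genes tested were at that p), and in 3 of the 19 the groups did not overlap (7.6% of all genes). The called gene was the only one of the 291 genes tested in the lists of ribosome production, its steering, p53 and its targets, and ribosomal rows outside the member rule (0.344%), where 0.349% of all genes tested were called. Myc, a transcription factor that drives ribosome production, stood at 35.9, 38.9, 37.7 and 33.6 CPM in WT and 51.8, 48.1, 54.7 and 53.3 CPM in Gsdmd-/-. All 4 Gsdmd-/- libraries were above all 4 WT libraries. Its log2 fold change was 0.51 (SE 0.083, edgeR quasi-likelihood adjusted p = 0.0362), and the adjusted p was 0.0727 to 0.164 when any 1 library but WT 4 was left out. It was also over the threshold with the replicate number as a block (adjusted p = 0.1491) and with WT 4 and Gsdmd-/- 3 both left out (adjusted p = 0.0949), and it was 0.0288 with WT 2 and WT 3 left out. Mlst8, a subunit of both mTOR complexes, was nearest below 0 (-0.37, adjusted p = 0.287).

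Translation factors whose mRNAs carry the same pyrimidine start as the members numbered 16 with their companions, of which 6 were above 0 and 10 below. The edgeR quasi-likelihood test called 0, and 2 of the 16 had an unadjusted p under 0.05, which is near the 12% of all genes at that p. DESeq2 called 2 of the 16, where it called 2.26% of all genes, and they were Eef2 and Eif4b, a helicase cofactor of initiation named after its values were seen. Eef2, the factor that moves the ribosome along the mRNA, read 1892, 1995, 2044 and 2050 CPM in WT and 1671, 1596, 1646 and 1746 CPM in Gsdmd-/-. Its groups did not overlap, and its log2 fold change was -0.26 (SE 0.078), with an adjusted p of 0.2331 by the edgeR quasi-likelihood test and 0.00308 by DESeq2. Npm1, a nucleolar chaperone, was nearest above 0 (0.20, adjusted p = 0.6085).

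Of 14 host genes of small nucleolar RNAs, whose introns carry the guides of ribosomal RNA modification, 11 were tested. The edgeR quasi-likelihood test called 0, and 1 had an unadjusted p under 0.05 (0.349% and 12% of all genes tested). Snhg12 was at 4.81, 4.95, 5.92 and 5.66 CPM in WT and 3.14, 3.25, 3.49 and 1.79 CPM in Gsdmd-/-, without overlap, a log2 fold change of -0.87 (SE 0.21, edgeR quasi-likelihood adjusted p = 0.1494). DESeq2 and edgeR's exact test did call it, at adjusted p of 0.0146 and 0.0202, the 1 gene of the 11 that either called (2.26% and 1.91% of all genes). Snhg15 was nearest above 0, at 0.13. Of 10 genes of p53 and its targets, 0 were called by the edgeR quasi-likelihood test and 2 had an unadjusted p under 0.05. Of all genes tested, 0.349% and 12% did. The nuclease gene Aen was nearest below 0 at -0.38 (adjusted p = 0.1785), and DESeq2 called it alone of the 10 (adjusted p = 0.0489, 2.26% of all genes called). Mdm2 was nearest above 0 at 0.14 (adjusted p = 0.5359).

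Lists of members by role were described only by their counts. The 18 genes mutated in Diamond-Blackfan anaemia had a median of -0.013 (6 above and 12 below 0), the 9 at the tunnel exit -0.0016 (4 and 5), and the 6 with roles outside the ribosome in macrophages -0.0035 (3 and 3), with 0 called in each by any of these tools and 0 at an unadjusted p under 0.05. Lists of 10 macrophage markers and 10 proliferation genes had 0 called by them as well, with 2 and 0 at an unadjusted p under 0.05 in the edgeR quasi-likelihood test. Of all genes tested, 12% were at that p. Macrophage markers ran from -0.48 to 0.20, with Adgre1 (F4/80) at -0.24 (adjusted p = 0.3097) and Lyz2 at 0.20 (adjusted p = 0.6318), which became -0.015 without WT 2 and WT 3. Proliferation genes had a median of -0.0037, with Mki67 at -0.62 (adjusted p = 0.5031) and Mcm6 at 0.20 (adjusted p = 0.4436). Mki67, a marker of cycling cells, was at 22.9, 54.0, 44.4 and 15.8 CPM in WT and 17.8 to 26.3 CPM in Gsdmd-/-, and its direction turned without WT 2 and WT 3, to 0.20 (adjusted p = 0.7499).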

How the data were processed

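RNA was sequenced from 8 BMDM libraries, 4 WT and 4 Gsdmd-/-. The authors deposited a table of raw read counts per gene with Ensembl identifiers and symbols, and per the labels the reads were aligned to mm10. The aligner, the counter and its use of strand are not given in the sources used here. Libraries were grouped by their titles. Results of some genes are not reported here. Members and gene lists were chosen with earlier results of these data known.

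The counts were filtered with filterByExpr (12911 genes kept), scaled by TMM and tested with edgeR 4.0.16 (glmQLFit, glmQLFTest, two-sided, genotype as the one term) in R 4.3.3, with Benjamini-Hochberg adjustment over all genes tested, and CPM were computed from the same factors. Adjusted p-values in the text come from this fit unless another tool is named. Because the deposited unit was counts, limma voom 3.58.1 was an alternative (the study's methods name limma, a figure legend edgeR), with DESeq2 1.42.0, the exact test, other scalings, other filters, left-out libraries and a replicate block. The script was tested on simulated data. Shares of paralog pairs were compared by exact permutation tests (SciPy 1.17.1). Exon lengths, overlaps and windows of 50 nt came from GENCODE M21 (99.8% of 54532 identifiers matched). Promoters came from RefSeq, GRCm38.p6.

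Genes were named by rule: members at either call, the 6 smallest p-values in each direction, the 4 highest and 4 lowest per length, a fixed set (Rpl5, Rpl11, Rplp0, Rplp1, Rplp2, Rps6, Rpl13a, Rps27a, Rpsa), members not tested, paralogs, members outside the pattern, and in each list the called genes and the smallest p-value in each direction. Counts per library were 14935114 to 16794810, so 3 counts equal 0.177 to 0.199 CPM, and such floors cover counting error only.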

Additional observations from a re-analysis of the deposited data

Results flagged for a closer look

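Dixon's ratio for 4 libraries was above its 95% critical value in 2 of 118 groups checked, and chance alone gives about 5%. The share of Rps27l in its pair with Rps27 was 49.8% in Gsdmd-/- 2, against 53.1% to 53.3% in the other Gsdmd-/- libraries, which were very close to each other. Rpl36al was at 1.28 CPM in WT 4, against 0.550 to 0.670 CPM in the other WT libraries.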

How the results depend on the processing

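Adjusted calls rested on few genes. One member, Rpl39l, was called with DESeq2, with the exact test and with no filter (1 each), and 0 to 1 when libraries were left out 1 at a time. The looser call gave 0 members with at least 10 counts in every library, since Rpl39l was then not tested, 1 to 3 with libraries left out, and 1 at a fold cutoff of 0.25 or 1. The genes of the other lists called numbered 1 by the edgeR quasi-likelihood test, 5 with DESeq2, 2 with the exact test, 0 with the replicate block and with WT 4 and Gsdmd-/- 3 left out, and 0 to 1 with single libraries left out. At the looser call they numbered 3, and 5 with no filter and without WT 2 and WT 3, and 2 to 8 with single libraries left out. All genes called numbered 45, and 292 with DESeq2, 246 with the exact test, 109 with no filter, 25 with the replicate block, 161 without WT 2 and WT 3, 20 without WT 4 and Gsdmd-/- 3, and 14 to 84 with single libraries left out. WT 4 and Gsdmd-/- 3 were chosen to be left out, and counts summed over genes that share sequence, after seeing the data. The cause of these shifts was not tested.

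The members' median stayed within -0.093 to 0.133 with single libraries left out and within -0.131 to 0.0405 with 2 left out. The difference in their share of counts was -0.115 to 0.225 percentage points with single libraries left out. Same-numbered libraries of the genotypes deviated together with correlations of 0.0268, 0.182, 0.0412 and -0.201, so the numbers were not taken as pairs. With the replicate block the members' median was 0.000734, and 0 members were called.

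Signs of changes that passed no threshold turned as follows. Without WT 2 and WT 3, the pair shares became -1.73 points for Rps27l, 0.870 for Rpl22l1 and -0.0299 for Rpl36al, and log2 fold changes became -0.015 for Lyz2, 0.20 for Mki67 (from -0.62), -0.014 for Npm1, 1.53 for Pdgfra (from -0.88), -0.12 for Rack1, -0.11 for Rpl11, 0.033 for Rpl22l1, -0.11 for Rpl23a, -0.0023 for Rpl41, -0.031 for Rplp0, -0.0018 for Rps27a, -0.10 for Rps27l, -0.11 for Rps29, -0.042 for Rps3a1, -0.19 for Rps6, -0.11 for Rpsa and -0.052 for Snhg15. Without WT 4 and Gsdmd-/- 3 they became 0.36 for Rpl36al, 0.037 for Rpl7l1 and 0.076 for Rps2. Rps6 became -0.0018 under DESeq2 and RLE scaling and -0.0035 with at least 10 counts in every library. Rpl36al became 0.065 with voom, 0.010 with no filter, 0.041 with the replicate block and 0.0025 with upper-quartile scaling, and Rps2 0.0057 with no filter and 0.0030 with summed counts. With single libraries left out the share of Rpl22l1 ran from -0.774 to 0.164 points, and log2 fold changes ran from -0.062 to 0.13 for Rack1, -0.083 to 0.15 for Rpl11, -0.17 to 0.070 for Rpl22, -0.28 to 0.0094 for Rpl22l1, -0.14 to 0.36 for Rpl36al, -0.17 to 0.045 for Rpl5, -0.16 to 0.069 for Rpl7l1, -0.11 to 0.062 for Rplp1, -0.18 to 0.033 for Rplp2, -0.11 to 0.13 for Rps2, -0.14 to 0.36 for Rps27a, -0.031 to 0.26 for Rps29, -0.0060 to 0.22 for Rps3a1 and -0.094 to 0.15 for Rps6. Members with under 10 counts per library (Rpl39l in 3 WT libraries, Rpl24 in 2) are limited by depth.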
